A study of Sorghum bicolor with 12 samples.

Results

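Abscisic acid (ABA) response and signaling genes were examined in roots of 2 sweet sorghum lines. A locus was taken as a member when its deposited gene ontology (GO) terms held response to abscisic acid or abscisic acid-activated signaling pathway. Loci that also carried the salt stress, water channel or potassium transport term were left out. Loci described as late embryogenesis abundant proteins or dehydrins were to be left out too, but this step removed 0 loci. Nearly all descriptions read hypothetical protein, so genes of these families may still be among the members. Of 34352 loci in all, 425 carried an ABA term, 106 were left out by another GO term (105 of them by the salt stress term) and 319 remained. Of these, 196 carried the response term, 152 the signaling term and 29 both.

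The study compared Roma, a salt-sensitive line, with M-81E, a salt-tolerant line. Root RNA was sequenced from seedlings whose treatment began at the 3-leaf stage. By the study's methods, NaCl was raised in steps, and the 24 h were counted at the final level. The 4 groups were Roma-salt (Roma, NaCl for 24 h), Roma-CK (Roma without added salt), M-81E-salt (M-81E, NaCl for 24 h) and M-81E-CK (M-81E without added salt), with 3 libraries each. The labels mention no transgene and no induced mutation in either line. The study's methods call the libraries of a group biological replicates, while the labels do not say whether each came from separate plants.

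ABA is the hormone that plants make when water is short or salt is high. In Arabidopsis, where the pathway is best known, PYR/PYL receptors that have bound ABA hold back clade A protein phosphatases, which sets SnRK2 kinases free to phosphorylate ABF-type bZIP transcription factors, and these switch on genes for water retention and cell protection. Calcium-dependent protein kinases act beside this chain, and in roots ABA also shapes growth under salt.

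Expression was given per locus as FPKM (mapped fragments scaled by transcript length and by library size), which allows levels of different genes to be set side by side. Among the 319 members, 243 were above 0 in all 12 libraries, 211 averaged at least 1 FPKM over the libraries and 9 averaged at least 100 FPKM. The median of the members' mean level was 2.69 FPKM, against 0.835 FPKM over all loci. Together the members held 1.75, 1.80 and 2.03% of the FPKM sum in Roma-salt, against 1.69, 1.64 and 1.58% in Roma-CK, so that the Roma groups did not overlap. A large part of the Roma difference came from the most abundant member alone, SORBI_3004G286600, described below. In M-81E the shares were 1.80, 1.78 and 1.74% in M-81E-salt, against 1.78, 1.76 and 1.65% in M-81E-CK, and these overlapped. FPKM sums were between 267572 and 305677 per library. Read totals were not given, but the steps between low values put the libraries' relative depth between 0.815 and 1.04 of that of M-81E-CK1. Of the 18 loci with a photosystem term, 2 averaged 1 FPKM or more, and their summed level was 4.84 to 11.3 FPKM per library, highest in Roma-salt3. The only locus that matched the root list stood at 2.09 to 3.64 FPKM in Roma and 0.257 to 0.599 FPKM in M-81E. A zero in these files can be a failed estimate, since 16 members (5.02%) were listed at 0 in a library beside at least 1 FPKM in the same group, against 8.43% of all loci. Such values are called listed at 0 here.

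The first question was which members differed between salt and CK within each line. Members called significant had a Benjamini-Hochberg adjusted p under 0.05 in limma over all loci tested, and only these are said to have risen or fallen. In Roma, 9 of 306 members tested were called, of which 5 rose and 4 fell, beside 1.82% of all loci (1.04% rose and 0.784% fell). In M-81E, 1 of 314 members tested was called and it fell, beside 0.826% of all loci (0.494% fell). At an unadjusted p under 0.05, 90 members differed in Roma, beside 17.9% of all loci, and 74 in M-81E, beside 15.3%. The salt and CK libraries did not overlap at 116 members in Roma, beside 24.6% of all loci, and at 100 in M-81E, beside 22.1%. The study's own looser thresholds, an unadjusted p under 0.05 and a difference of mean FPKM of at least 2-fold, define the differentially expressed genes (DEGs) below. Roma had 43 DEGs among the members (28 higher and 15 lower in salt), beside 9.6% of all loci (5.15% higher and 4.44% lower), and M-81E had 26 (15 higher and 11 lower), beside 6.57% of all loci (3.07% higher and 3.5% lower). Without Roma-salt3 the Roma count was 29, with 25 higher and 4 lower. In 19 of the 43 Roma DEGs and 11 of the 26 M-81E DEGs the mean level was under 1 FPKM. The members' median log2 fold change, on the log2(FPKM + 1) scale, which understates changes of weakly expressed loci, was 0.032 in Roma (0.003 over all loci) and 0.028 in M-81E (0.008 over all loci).

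The 9 calls in Roma were narrow. Each was lost when a single library was left out, whichever library it was, apart from SORBI_3004G101400, which kept an adjusted p of 0.0486 without Roma-salt3. Fewer than 9 members were called in every such fit, with 4 the most (without Roma-salt3) and 0 the fewest (without Roma-CK1, Roma-CK2 or Roma-salt1). In M-81E the call of SORBI_3007G181500 was lost whichever library was left out (adjusted p between 0.0631 and 0.0936), and these fits called 0 members or 1 other member.

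Loci annotated as ABA receptors were considered first. There were 18, of which 7 carried the KEGG orthology entry of the PYR/PYL family and 11 carried only the GO term abscisic acid binding, which is also given to related proteins of the pathogenesis-related 10 family. In Roma, 2 of 17 tested fell, 0 rose, and 12 of 17 fold changes were below 0, with a median log2 fold change of -0.15. In M-81E, 0 of 17 tested were called by limma (4 higher and 4 lower at an unadjusted p under 0.05), with a median of 0.01. The loci with the PYR/PYL entry had medians of -0.05 in Roma and 0.06 in M-81E, where 2 were higher and 0 lower at that unadjusted p. The 11 loci with only the binding term had medians of -0.41 in Roma and -0.14 in M-81E, where 2 were higher and 4 lower.

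SORBI_3006G198800, an ABA binding locus, had 19.0, 14.4 and 18.3 FPKM in Roma-salt, against 56.8, 43.1 and 55.6 FPKM in Roma-CK. All Roma-salt libraries were below all Roma-CK libraries, and the locus fell by 1.53 ± 0.16 (SE) on the log2 scale (limma, adjusted p = 0.0272). In M-81E it had 9.96, 19.97 and 17.9 FPKM in M-81E-salt, against 28.9, 23.7 and 21.2 FPKM in M-81E-CK, which was not called (log2 fold change -0.64, adjusted p = 0.35). Here and below, the roots are bulk tissue, where fewer cells of a type and less RNA per cell cannot be told apart.

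SORBI_3004G113800, a receptor by KEGG orthology, had 4.99, 5.22 and 5.79 FPKM in Roma-salt, against 9.76, 8.79 and 9.76 FPKM in Roma-CK. The groups did not overlap and the locus fell by 0.72 ± 0.09 (SE) on the log2 scale (limma, adjusted p = 0.0355). Its M-81E libraries overlapped, at 5.12, 2.45 and 4.27 FPKM in M-81E-salt and 2.47, 4.37 and 3.84 FPKM in M-81E-CK. A further receptor by KEGG orthology, SORBI_3009G080200, had 10.8, 11.5 and 7.25 FPKM in Roma-salt, against 22.7, 25.6 and 12.3 FPKM in Roma-CK. It was a DEG without overlap of the groups, yet was not called by limma (log2 fold change -0.93, adjusted p = 0.205). For these 3 loci the difference between the lines in salt response was not called either (adjusted p = 0.247, 0.236 and 0.215 in limma).

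Receptor loci with a fold change above 0 numbered 5 of 17 in Roma and 10 of 17 in M-81E. SORBI_3006G199100, which carries the ABA binding term, had 4.27, 5.42 and 6.56 FPKM in Roma-salt, against 3.20, 2.84 and 3.12 FPKM in Roma-CK, and SORBI_3009G170700, a receptor by KEGG orthology, had 1.24, 2.22 and 1.26 FPKM in M-81E-salt, against 0.802, 0.685 and 0.849 FPKM in M-81E-CK. Neither pair of groups overlapped, but neither was called (limma, adjusted p = 0.112 and 0.273). SORBI_3001G289100 was listed at 0 in 10 of 12 libraries and at 7.57 FPKM in Roma-salt3 and 8.22 FPKM in Roma-CK2.

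The most abundant receptor-annotated loci were 4 neighbours on the same chromosome, spanning SORBI_3001G400700 to SORBI_3001G401300. The deposited descriptions name pathogenesis-related protein 10 at 2 of them, and as neighbours of like annotation they may share reads, so that the level of each alone is uncertain. Summed over the 4 loci, the level was 329, 431 and 355 FPKM in M-81E-salt, against 790.0, 741 and 733 FPKM in M-81E-CK. All M-81E-salt libraries were below all M-81E-CK libraries, and the mean ratio was 0.492. The locus of SORBI_3001G400700 and SORBI_3001G400800, for one, had 112, 118 and 126 FPKM in M-81E-salt, against 214, 201 and 312 FPKM in M-81E-CK. In Roma the sums were 345, 369 and 102 FPKM in Roma-salt, against 331, 436 and 457 FPKM in Roma-CK, which overlapped. Roma-salt3 alone was far below the others, and at SORBI_3001G401300 it had 11.6 FPKM beside 163 and 194 FPKM in the other Roma-salt libraries. The adjusted p of the single loci in M-81E was 0.106, 0.107, 0.107 and 0.192 in limma, so that none was called.

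Further down the chain, few members could be followed. The files annotate no locus with the KEGG entry of the clade A phosphatases, and the 2 members with the SnRK2 entry stayed under 0.2 FPKM in every library. Of the 15 members annotated as other protein phosphatases, 0 were called by limma in either line (in Roma 5 were higher and 0 lower at an unadjusted p under 0.05, in M-81E 3 were higher and 1 lower). SORBI_3009G161800, a phosphatase annotated as a negative regulator of ABA signaling, had 8.18, 14.9 and 9.13 FPKM in Roma-salt, against 2.11, 5.30 and 7.02 FPKM in Roma-CK. The groups did not overlap and it was a DEG, but its adjusted p in limma was 0.257. SORBI_3001G406300, the most abundant phosphatase, had 169, 296 and 237 FPKM in Roma-salt, against 139, 124 and 152 FPKM in Roma-CK, and 228, 215 and 131 FPKM in M-81E-salt, against 107, 109 and 83.0 FPKM in M-81E-CK. In both lines all salt libraries were above all CK libraries, with log2 fold changes of 0.72 ± 0.23 in Roma and 0.90 ± 0.25 in M-81E (SE) that limma did not call (adjusted p = 0.19 and 0.192).

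The 10 ABF-type bZIP members, the transcription factors at the end of the chain, gave 0 calls by limma and 0 DEGs in either line (1 higher and 0 lower at an unadjusted p under 0.05 in each). Their fold changes were above 0 at 8 of 9 tested in Roma and 9 of 10 tested in M-81E, with medians of 0.12 and 0.11 on the log2 scale. Only 4 of them averaged at least 1 FPKM. SORBI_3010G269000 was an example, with 1.46, 1.44 and 2.48 FPKM in Roma-salt against 1.06, 0.873 and 1.32 FPKM in Roma-CK, and 1.36, 1.15 and 1.101 FPKM in M-81E-salt against 0.744, 0.701 and 0.419 FPKM in M-81E-CK (limma, adjusted p = 0.363 and 0.2).

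The 5 members that rose in Roma belonged to different roles. SORBI_3003G286700, annotated to osmotic stress and ABA, had 7.82, 12.2 and 12.9 FPKM in Roma-salt, against 2.31, 2.59 and 3.53 FPKM in Roma-CK. All Roma-salt libraries were at least 2 times above all Roma-CK libraries, and the locus rose by 1.64 ± 0.22 (SE) on the log2 scale (limma, adjusted p = 0.0386). In M-81E it had 2.98, 3.21 and 2.87 FPKM in M-81E-salt, against 1.47, 1.21 and 1.09 FPKM in M-81E-CK. These did not overlap either, and the adjusted p of 0.0555 lay just past the threshold (log2 fold change 0.84 ± 0.12, SE).

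SORBI_3004G101400, also annotated to osmotic stress and ABA, had 1.61, 1.73 and 2.91 FPKM in Roma-salt, against 0.350, 0.307 and 0.281 FPKM in Roma-CK. It rose without overlap of the groups (log2 fold change 1.21 ± 0.19, SE, limma adjusted p = 0.0493), while in M-81E the groups overlapped at 0.899, 0.617 and 0.613 FPKM in M-81E-salt and 0.792, 0.333 and 0.487 FPKM in M-81E-CK. SORBI_3005G183200, annotated to ABA response and brassinosteroid signaling, had 4.505, 3.79 and 6.403 FPKM in Roma-salt, against 1.26, 1.66 and 1.08 FPKM in Roma-CK. It rose as well (log2 fold change 1.32 ± 0.21, SE, limma adjusted p = 0.0493), and its M-81E libraries did not overlap, at 2.09, 1.82 and 1.91 FPKM in M-81E-salt against 0.818, 0.851 and 1.42 FPKM in M-81E-CK, though without a call (adjusted p = 0.195).

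The remaining 2 that rose showed smaller, tight differences. A locus that joins SORBI_3004G300100, SORBI_3004G300200 and SORBI_3004G300300, one of them a transcription factor annotated to water deprivation, had 3.36, 4.29 and 3.93 FPKM in Roma-salt, against 1.57, 1.72 and 1.64 FPKM in Roma-CK (log2 fold change 0.87 ± 0.13, SE, limma adjusted p = 0.0421). Its M-81E libraries overlapped, with 2.70, 4.26 and 4.95 FPKM in M-81E-salt and 4.76, 3.87 and 4.67 FPKM in M-81E-CK, so that Roma-CK was the low group. SORBI_3001G314200, annotated to the plastid membrane and electron transport, had 8.53, 9.54 and 7.72 FPKM in Roma-salt, against 4.24, 4.70 and 3.90 FPKM in Roma-CK (log2 fold change 0.86 ± 0.11, SE, limma adjusted p = 0.0369). The summed photosystem loci were also higher in Roma-salt, at 7.18, 7.23 and 11.3 FPKM against 5.94, 4.84 and 4.97 FPKM in Roma-CK. In M-81E they had the same order, at 7.76, 8.93 and 7.15 FPKM in M-81E-salt against 5.28, 6.77 and 6.68 FPKM in M-81E-CK. Their part in the difference at SORBI_3001G314200 was not tested.

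**Figure D1:**
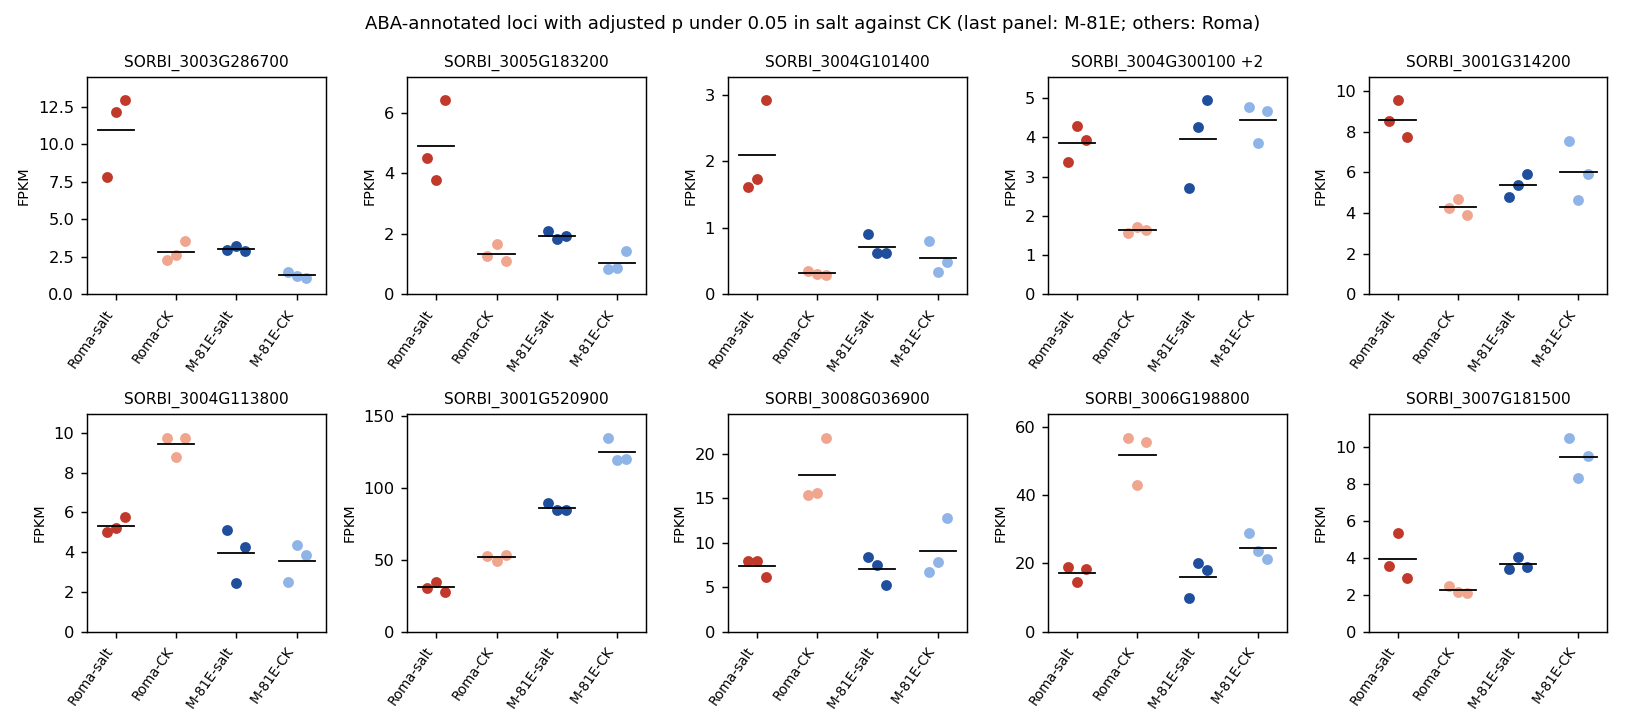
FPKM of the 10 members called in a salt comparison, 1 panel per locus, with 1 point per library and a line at each group's mean. In the first 9 panels, ordered by fold change in Roma, the Roma-salt and Roma-CK points do not overlap. In the last panel, SORBI_3007G181500, M-81E-CK stands above the other 3 groups at 8.33 to 10.5 FPKM.

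Besides both receptor loci, a transcription factor and a kinase fell in Roma. SORBI_3008G036900, a DNA-binding factor annotated to ABA response, had 7.95, 7.97 and 6.13 FPKM in Roma-salt, against 15.4, 15.6 and 21.8 FPKM in Roma-CK (log2 fold change -1.15 ± 0.17, SE, limma adjusted p = 0.0471). In M-81E its groups overlapped, at 8.33, 7.43 and 5.26 FPKM in M-81E-salt and 6.64, 7.84 and 12.8 FPKM in M-81E-CK. SORBI_3001G520900, a calcium-dependent kinase, had 30.2, 34.6 and 27.3 FPKM in Roma-salt, against 52.5, 49.3 and 53.5 FPKM in Roma-CK (log2 fold change -0.74, limma adjusted p = 0.0435). In M-81E it stood higher throughout, with 89.2, 84.8 and 84.2 FPKM in M-81E-salt, against 135, 119 and 120.1 FPKM in M-81E-CK. There too the groups did not overlap, but the difference was not called (log2 fold change -0.53, adjusted p = 0.0921).

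Calcium-dependent kinases, which decode calcium signals and in Arabidopsis phosphorylate some of the same targets as SnRK2 kinases, formed the largest kinase group with 48 members. In Roma 1 of 47 tested fell, 0 rose and 5 were DEGs, all lower in salt. In M-81E 0 of 47 were called by limma (6 higher and 4 lower at an unadjusted p under 0.05) and 1 was a DEG. The Roma DEGs were weakly expressed, SORBI_3008G080700 and SORBI_3010G243700 staying under 0.5 FPKM in every Roma library and SORBI_3006G148300 being the highest with 0.819, 0.886 and 0.559 FPKM in Roma-salt against 2.95, 1.05 and 2.27 FPKM in Roma-CK. The most abundant kinases of the group differed little, and SORBI_3006G192500 had 243, 229 and 268 FPKM in Roma-salt against 262, 293 and 277 FPKM in Roma-CK (log2 fold change -0.17 ± 0.13, SE). SORBI_3002G343500 had 210.5, 205 and 249.6 FPKM in Roma-salt, against 179.9, 164 and 149.8 FPKM in Roma-CK, without overlap but also without a call (log2 fold change 0.42, limma adjusted p = 0.201).

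Of the 6 members with the highest mean level, none was called in either salt comparison. SORBI_3004G286600, annotated to cold acclimation and water deprivation and to both cytosol and membrane, was the most abundant member. It had 1054, 1079 and 1067 FPKM in Roma-salt against 664, 653 and 706 FPKM in Roma-CK. The Roma groups stood clearly apart (log2 fold change 0.66 ± 0.21, SE, limma adjusted p = 0.181), while 813, 768 and 673 FPKM in M-81E-salt overlapped with 677, 591 and 584 FPKM in M-81E-CK. SORBI_3001G410100, annotated as a MAP kinase of osmotic and oxidative stress signaling, was next, with 571, 553 and 553 FPKM in Roma-salt against 629, 579 and 613 FPKM in Roma-CK. SORBI_3001G516100, a kinase annotated to ABA and brassinosteroid signaling, had 208, 187 and 338 FPKM in Roma-salt against 177, 95.8 and 85.5 FPKM in Roma-CK, and 185, 183 and 172 FPKM in M-81E-salt against 132, 126 and 134 FPKM in M-81E-CK. It was higher in every salt library than in any CK library of its line, without a call (limma, adjusted p = 0.219 in Roma and 0.126 in M-81E).

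Large fold differences were found among loci annotated to cold acclimation, a term given to genes that protect cells in the cold and under water loss. Of these 8 loci, 2 were DEGs, higher in both lines, and 0 were called by limma in either line (3 were higher in Roma and 2 in M-81E at an unadjusted p under 0.05, and 0 lower). SORBI_3009G116700 had 64.7, 75.2 and 276 FPKM in Roma-salt, against 8.17, 5.23 and 11.9 FPKM in Roma-CK. Every Roma-salt library was above 5 times the highest Roma-CK library, but the Roma-salt libraries themselves differed more than 4-fold, with Roma-salt3 the highest (log2 fold change 3.62 ± 0.62, SE, limma adjusted p = 0.0588). In M-81E the same locus had 30.4, 13.5 and 10.6 FPKM in M-81E-salt, against 6.13, 2.67 and 8.06 FPKM in M-81E-CK (log2 fold change 1.49 ± 0.50, SE, adjusted p = 0.25).

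SORBI_3010G041900 repeated this order at a lower level, with 2.54, 3.06 and 8.67 FPKM in Roma-salt against 0.318, 0.0449 and 0.281 FPKM in Roma-CK, and 0.794, 0.560 and 0.138 FPKM in M-81E-salt against 0.101, 0.0317 and 0.0575 FPKM in M-81E-CK. The groups did not overlap in either line and Roma-salt3 was again the highest library (limma, adjusted p = 0.0742 in Roma and 0.281 in M-81E). The difference between the lines in salt response was not called at either locus (adjusted p = 0.279 and 0.13). Among the Roma DEGs, Roma-salt3 was the highest Roma-salt library in 14 of the 28 that were higher in Roma-salt. It was the lowest in 10 of the 15 that were lower. Over all 319 members it was the highest Roma-salt library at 128 (40.1%).

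Loci annotated to lithium ion response, which also carry terms for ion homeostasis, osmotic stress and water deprivation, made a small group of 5. In Roma 3 of the 4 tested were DEGs, all higher in salt, and in M-81E 1 of 5 was, lower in salt. None was called by limma (3 higher in Roma and 1 lower in M-81E at an unadjusted p under 0.05). SORBI_3007G109800 was the most abundant, with 4.67, 5.11 and 12.1 FPKM in Roma-salt against 0.850, 0.257 and 1.07 FPKM in Roma-CK. Its M-81E libraries all stayed under 1 FPKM and overlapped, at 0.398, 0.787 and 0.581 FPKM in M-81E-salt and 0.705, 0.483 and 0.551 FPKM in M-81E-CK. SORBI_3001G497700 and SORBI_3004G142500 had 0.493, 0.448 and 0.965 FPKM and 0.431, 1.52 and 0.617 FPKM in Roma-salt, against highest Roma-CK values of 0.172 and 0.175 FPKM.

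**Figure D2:**
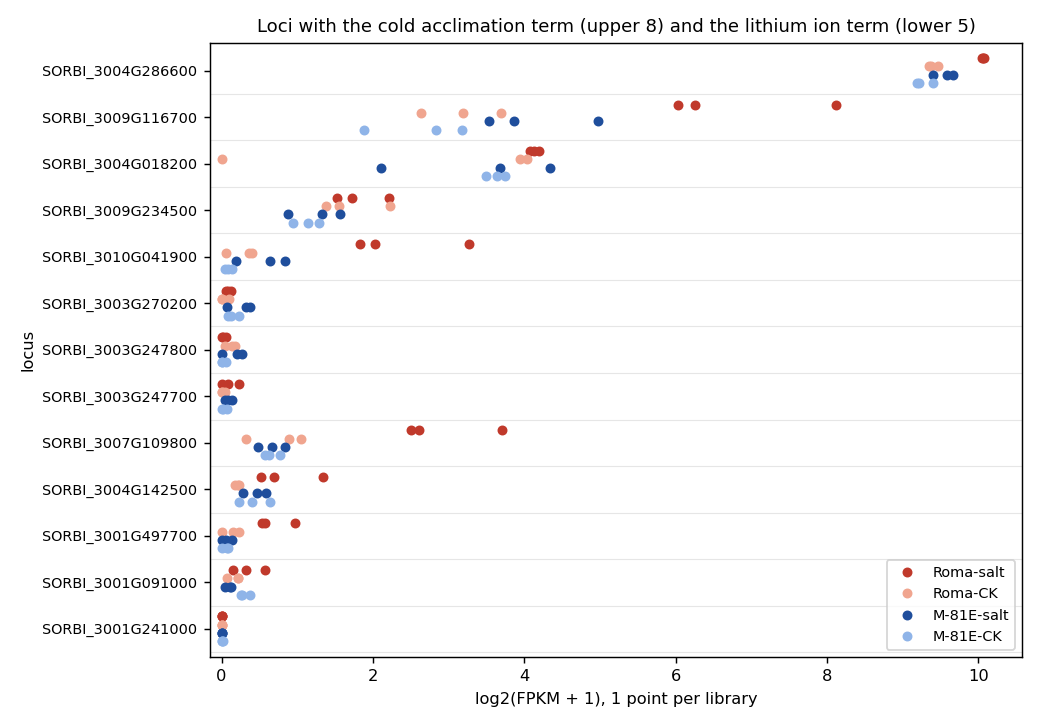
Level of the 8 members annotated to cold acclimation (above) and of the 5 annotated to lithium ion response (below) in each library, as log2(FPKM + 1), with 1 point per library. SORBI_3009G116700, SORBI_3010G041900 and SORBI_3007G109800 have their Roma-salt points set apart above the other groups, with Roma-salt3 highest in each.

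By broader term, the members with the response term held 25 DEGs higher and 7 lower in Roma-salt of 188 tested, and those with the signaling term 6 higher and 8 lower of 147 tested, where 5.15% of all loci were higher and 4.44% lower. In M-81E these counts were 12 higher and 6 lower of 195 for the response term and 3 higher and 5 lower of 148 for the signaling term, where 3.07% of all loci were higher and 3.5% lower. Members annotated to water deprivation held 9 DEGs higher and 1 lower of 37 tested in Roma, and 2 higher and 1 lower of 40 in M-81E. Among the 16 members annotated to osmotic stress, 6 were DEGs higher in Roma-salt, of which 2 rose by the limma call, SORBI_3003G286700 and SORBI_3004G101400.

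In M-81E the single member called was SORBI_3007G181500, a transcription factor of the ABA signaling term. It had 3.37, 4.06 and 3.50 FPKM in M-81E-salt, against 10.5, 8.33 and 9.49 FPKM in M-81E-CK, and fell by 1.17 ± 0.12 (SE) on the log2 scale (limma, adjusted p = 0.0256). All M-81E-salt libraries were below all M-81E-CK libraries. Next by unadjusted p among the lower DEGs, without a call, was SORBI_3002G192000, annotated to chitin and ABA response, with 12.97, 20.7 and 13.6 FPKM in M-81E-salt against 37.4, 33.8 and 31.2 FPKM in M-81E-CK (log2 fold change -1.09 ± 0.19, SE, adjusted p = 0.0843). SORBI_3004G219900, a calcium-dependent kinase, had the largest negative fold change, with 2.77, 19.3 and 8.66 FPKM in M-81E-salt against 36.2, 36.6 and 40.1 FPKM in M-81E-CK (log2 fold change -2.09 ± 0.60, SE, adjusted p = 0.195). Among those higher, SORBI_3005G013500, of the ABA response term, had 2.91, 2.33 and 3.35 FPKM in M-81E-salt, against 0.795, 1.02 and 1.33 FPKM in M-81E-CK (log2 fold change 0.91 ± 0.16, SE, adjusted p = 0.0869). The other DEGs that ranked next in M-81E were weak, with SORBI_3006G205000 (galactose metabolism), SORBI_3004G145550 (an inositol phosphatase) and SORBI_3001G091000 (lithium term) under 0.6 FPKM in every library, and SORBI_3002G067000, an ATPase locus of the endoplasmic reticulum, had 18.3, 17.7 and 23.9 FPKM in M-81E-salt against 33.2, 54.6 and 35.6 FPKM in M-81E-CK (log2 fold change -0.99, adjusted p = 0.136).

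The lines were then set side by side. Both salt comparisons used separate libraries. DEGs in both lines numbered 7, all higher in salt in both, which is 16.3% of the 43 Roma DEGs and 26.9% of the 26 M-81E DEGs. Over all loci the shared DEGs were 15.1% of those of Roma and 22.1% of those of M-81E. The fold change had the same sign in both lines at 182 of 301 members tested in both (60.5%), against 56.2% of all loci. Besides the osmotic stress locus and both cold acclimation loci above, the 7 included the phosphatase SORBI_3006G018400, the transcription factor SORBI_3004G231700 and the inositol phosphatase SORBI_3002G254700. The last was SORBI_3002G393100, which carries the KEGG entry of xanthoxin dehydrogenase, an enzyme of ABA synthesis. Its GO terms name steroid dehydrogenase activities and no step of ABA synthesis. SORBI_3004G231700 had 5.77, 4.68 and 4.54 FPKM in Roma-salt against 1.08, 3.53 and 0.979 FPKM in Roma-CK, and 1.68, 1.72 and 0.614 FPKM in M-81E-salt against 0.383, 0.481 and 0.439 FPKM in M-81E-CK, so that no pair of groups overlapped. The other 3 of these loci were under 1 FPKM in every library.

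A test of the difference in salt response, Roma minus M-81E, called 3 of 319 members, all of them higher, beside 1.81% of all loci (1.01% higher), and 68 at an unadjusted p under 0.05, beside 15.1%. SORBI_3007G181500 differed by 1.75 ± 0.23 (SE) on the log2 scale (limma, adjusted p = 0.00877). In Roma it had 3.57, 5.34 and 2.92 FPKM in Roma-salt, against 2.44, 2.15 and 2.10 FPKM in Roma-CK, so that its groups stood in the opposite order to those of M-81E given above, although the Roma difference alone was not called (log2 fold change 0.59 ± 0.20, SE, adjusted p = 0.219). The call held without any one of the 12 libraries. SORBI_3007G109800, the lithium-term locus described above, differed by 2.18 ± 0.43 (SE, adjusted p = 0.0397). This call was lost with a pseudocount of 0.1 and with the replicate block, and held in 4 of 12 fits without 1 library. SORBI_3003G110932, a transcription factor annotated to xylem development, differed by 0.34 ± 0.07 (SE, adjusted p = 0.0436), with 0.453, 0.329 and 0.434 FPKM in Roma-salt against 0.165, 0.115 and 0.211 FPKM in Roma-CK, and no M-81E library above 0.134 FPKM. Its call held in 2 of 12 fits without 1 library. It was lost with a pseudocount of 0.1, a common median, no variance trend and the replicate block.

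**Figure D3:**
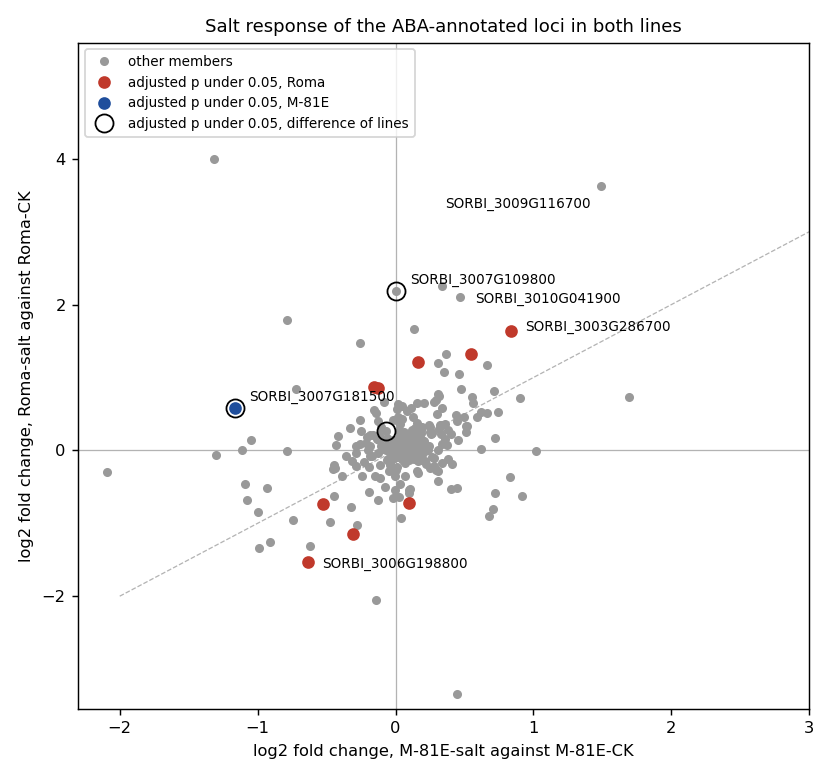
Log2 fold change of salt over CK in Roma (vertical) against that in M-81E (horizontal), on the log2(FPKM + 1) scale, for the 301 members tested in both lines. Coloured points were called in a line and ringed points in the test of the difference between the lines. Most members lie near 0 in both, and SORBI_3007G181500 lies at -1.17 in M-81E and 0.59 in Roma, while the highest point, SORBI_3004G283201, was listed at 0 in all Roma-CK libraries and in 1 Roma-salt library.

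Levels of the members also differed between the lines themselves. Reads of both lines were placed on the same reference, so that a difference in sequence or mapping and a difference in expression cannot be told apart here. Without salt 85 of 313 members were called in Roma-CK against M-81E-CK, 61 higher and 24 lower in Roma, beside 27.3% of all loci (18.5% higher and 8.84% lower). After the libraries were set to a common median the count was 70, with 20 higher and 50 lower, since the median log2 fold change over all loci was 0.115 before and -0.006 after that step. Under salt 88 of 312 members were called in Roma-salt against M-81E-salt, 71 higher and 17 lower, beside 30.4% of all loci (21.2% higher and 9.15% lower), and with a common median 84, with 35 higher and 49 lower. The direction in which most members differed thus depended on the scaling in both comparisons. In all, 48 members were called in both comparisons, all in the same direction, which is 56.5% of those called without salt and 54.5% of those called with salt. Without M-81E-CK2 or M-81E-CK1 the count in CK was 40 or 47.

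Among members lower in Roma, SORBI_3003G369100, an ethylene-pathway transcription factor annotated as a negative regulator of ABA signaling, had 12.6, 12.6 and 11.1 FPKM in Roma-salt, against 38.8, 44.0 and 43.7 FPKM in M-81E-salt. Its levels were 11.3, 14.4 and 16.8 FPKM in Roma-CK, against 61.0, 52.6 and 60.4 FPKM in M-81E-CK, and the lines did not overlap in either condition (-1.72 with salt and -1.98 without, limma adjusted p = 0.000511 and 0.00106). SORBI_3010G104900, annotated as a seed peroxygenase-like enzyme of lipid bodies and to drought recovery, had 10.05, 7.40 and 5.03 FPKM in Roma-CK, against 26.6, 25.6 and 29.8 FPKM in M-81E-CK (log2 fold change -1.78, adjusted p = 0.00462). The receptor-annotated locus of SORBI_3001G401100 and SORBI_3001G401200, in the cluster above, was at 51.7, 65.6 and 68.3 FPKM in Roma-CK, against 285, 265 and 209 FPKM in M-81E-CK (log2 fold change -2.01, adjusted p = 0.00138). SORBI_3007G181500 was lower in Roma-CK than in M-81E-CK (log2 fold change -1.69, adjusted p = 0.000757), while with salt the difference was 0.06 (adjusted p = 0.834). With salt the calcium-dependent kinase SORBI_3001G520900 was also lower in Roma-salt than in M-81E-salt (log2 fold change -1.46, adjusted p = 0.000795), as was SORBI_3002G067000 (-2.17, adjusted p = 0.0448), whose Roma-salt libraries spread between 0.949 and 9.42 FPKM and whose call held in 2 of 6 fits without 1 library.

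Among members higher in Roma, SORBI_3001G181600, a locus with steroid dehydrogenase terms annotated to brassinosteroid and ABA response, had 2.30, 2.26 and 1.99 FPKM in Roma-salt, against 0.703, 0.601 and 0.665 FPKM in M-81E-salt. Without salt it had 3.52, 3.31 and 3.97 FPKM in Roma-CK, against 0.600, 0.591 and 0.443 FPKM in M-81E-CK, again without overlap (log2 fold change 1.57, limma adjusted p = 0.000975). SORBI_3010G247200, an ATPase locus of the endoplasmic reticulum, had 30.9, 27.2 and 28.6 FPKM in Roma-salt, against 8.06, 6.56 and 6.02 FPKM in M-81E-salt (log2 fold change 1.93, adjusted p = 0.00057). The locus of SORBI_3002G386300 and SORBI_3002G386400, the first an exosome component, had 15.6, 10.3 and 12.9 FPKM in Roma-CK, against 2.76, 3.02 and 3.59 FPKM in M-81E-CK (log2 fold change 1.75, adjusted p = 0.00194). The calcium-dependent kinase SORBI_3002G393200 had 15.9, 17.0 and 11.7 FPKM in Roma-CK, against 5.13, 5.65 and 5.11 FPKM in M-81E-CK (log2 fold change 1.32, adjusted p = 0.00326). The oligopeptide transporter SORBI_3001G223100 was also called in CK (log2 fold change 1.68, adjusted p = 0.0282), but Roma-CK3 stood apart at 24.2 FPKM and the call was lost with a common median and in 3 of 6 fits without 1 library. With salt, SORBI_3007G109800 and SORBI_3010G041900 were higher in Roma-salt than in M-81E-salt by 2.28 and 1.82 on the log2 scale (adjusted p = 0.00677 and 0.0269), the second call being lost with the replicate block and in 3 of 6 fits without 1 library (adjusted p up to 0.0783). The cold acclimation locus SORBI_3009G116700 was 2.68 higher in Roma-salt than in M-81E-salt on the log2 scale (adjusted p = 0.0326), a call that was lost with a common median and in 3 of 6 fits without 1 library. Chosen after its values were seen, SORBI_3004G070900, a transcription factor of the ABA response term, was listed at 0 in all 6 M-81E libraries and had 31.5, 32.2 and 25.1 FPKM in Roma-salt and 29.2, 40.0 and 39.1 FPKM in Roma-CK.

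**Figure D4:**
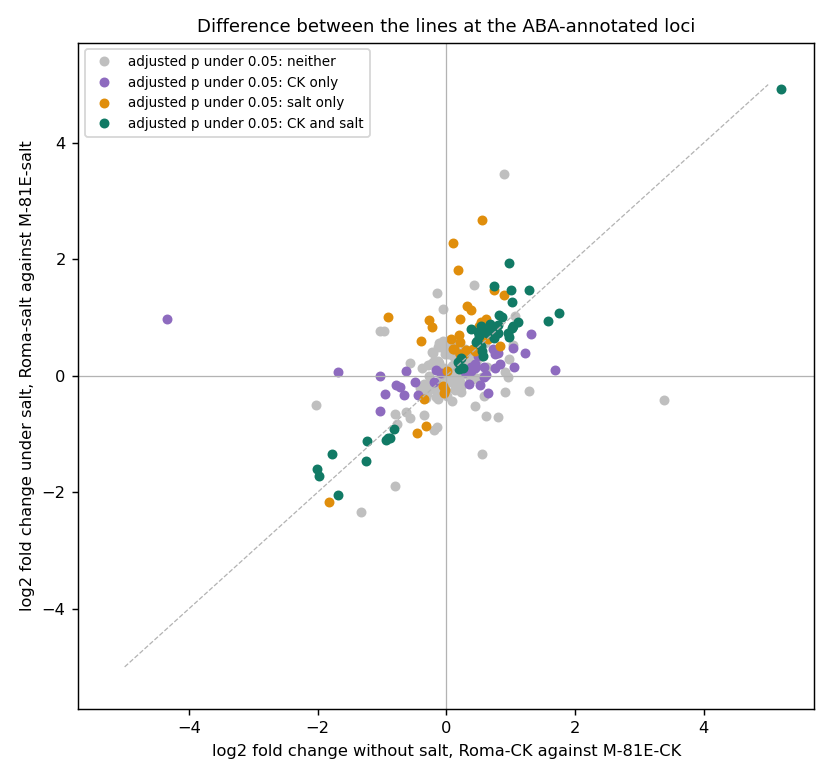
Log2 difference in level between Roma and M-81E with salt (vertical) and without salt (horizontal), on the log2(FPKM + 1) scale, for the 306 members tested in both comparisons. Coloured points were called in 1 or both comparisons. The 48 members called in both lie in the upper right and lower left, SORBI_3003G369100 at -1.98 without salt and -1.72 with salt.

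Genes of the ABA pathway outside the members were counted from the KEGG and GO annotation and gave 134 loci, some of them left out of the members only because they carry the salt stress term. In Roma 5 of 127 tested rose and 4 fell by limma, where 1.04% of all loci rose and 0.784% fell (21 pathway loci were higher and 21 lower at an unadjusted p under 0.05). In M-81E 0 of 132 rose and 1 fell, where 0.494% of all loci fell (15 higher and 14 lower at an unadjusted p under 0.05). Some of these loci carried KEGG entries of enzymes of ABA synthesis. SORBI_3001G402200, with the entry of xanthoxin dehydrogenase, had 77.3, 80.9 and 78.7 FPKM in Roma-salt, against 26.7, 24.7 and 38.7 FPKM in Roma-CK. Its log2 fold change was 1.39 (limma, adjusted p = 0.034). SORBI_3002G043500, with the entry of abscisic-aldehyde oxidase, which makes ABA in the last step, had 3.25, 3.59 and 4.26 FPKM in Roma-salt, against 1.28, 1.61 and 1.42 FPKM in Roma-CK (log2 fold change 0.94, adjusted p = 0.0441). Both entries also cover related dehydrogenases and oxidases. The GO terms of SORBI_3002G043500 name xanthine dehydrogenase activity and xanthine breakdown. Those of SORBI_3001G402200 name no step of ABA synthesis. Chosen after its values were seen, SORBI_3010G050300, with the entry of 9-cis-epoxycarotenoid dioxygenase, an early enzyme of ABA synthesis, fell in Roma at a low level, with 0.0510, 0.0561 and 0.0572 FPKM in Roma-salt, against 0.265, 0.244 and 0.302 FPKM in Roma-CK (log2 fold change -0.27, adjusted p = 0.031). The ABF-type bZIP factor SORBI_3010G081800 had 4.72, 4.33 and 10.1 FPKM in Roma-salt, against 0.644, 0.345 and 0.918 FPKM in Roma-CK (log2 fold change 2.10, adjusted p = 0.0491), and did not exceed 0.954 FPKM in M-81E. The 6 ABF-type bZIP loci outside the members had 5 fold changes above 0 in Roma (median 0.48 on the log2 scale) and 5 below 0 in M-81E (median -0.20).

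Kinases with the SnRK2 entry, which in these files covers 53 loci and so more than the SnRK2 family, moved in both directions. SORBI_3008G032000 had 1.79, 1.48 and 1.42 FPKM in Roma-salt, against 8.53, 8.04 and 7.83 FPKM in Roma-CK (log2 fold change -1.84, limma adjusted p = 0.00743), and SORBI_3001G078800 had 41.9, 41.3 and 46.8 FPKM in Roma-salt, against 26.6, 21.4 and 19.6 FPKM in Roma-CK (log2 fold change 0.92, adjusted p = 0.0421). SORBI_3008G016200 fell by 0.69 in Roma on the log2 scale (adjusted p = 0.049). Chosen after its values were seen, SORBI_3002G424500 also fell, with 7.84, 7.56 and 7.09 FPKM in Roma-salt, against 13.96, 11.6 and 11.65 FPKM in Roma-CK (log2 fold change -0.65, adjusted p = 0.0493). The one call in M-81E, SORBI_3001G408200, described as a sucrose non-fermenting related kinase, had 13.04, 12.3 and 12.6 FPKM in M-81E-salt, against 23.3, 22.2 and 25.4 FPKM in M-81E-CK (log2 fold change -0.85, adjusted p = 0.0243). A phosphatase annotated as a negative regulator of ABA signaling, SORBI_3001G424400, had 11.1, 12.6 and 14.7 FPKM in Roma-salt, against 5.52, 5.94 and 5.17 FPKM in Roma-CK (log2 fold change 1.07, adjusted p = 0.031). Its order was the opposite in M-81E, at 11.3, 13.6 and 13.2 FPKM in M-81E-salt against 17.7, 15.8 and 17.0 FPKM in M-81E-CK, and the difference between the lines in salt response was 1.45 ± 0.16 (SE, adjusted p = 0.00446). Among the salt calls of these pathway loci, that of SORBI_3008G032000 held in 6 of 6 fits without 1 library and those of SORBI_3001G402200 and SORBI_3001G078800 in 1 of 6. Those of SORBI_3002G043500, SORBI_3010G081800, SORBI_3001G424400, SORBI_3008G016200 and SORBI_3001G408200 held in 0 of 6, and SORBI_3010G050300 and SORBI_3002G424500 were not refitted in this way.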

How the data were processed

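RNA-seq of roots was analysed in 12 libraries, 3 for each of Roma-salt, Roma-CK, M-81E-salt and M-81E-CK. The authors deposited FPKM values per locus, made by trimming reads with Cutadapt, mapping them with Bowtie2 and TopHat2 and assembling and quantifying with StringTie; versions, genome build and annotation are not given in the sources used here. The labels name a small RNA library kit, although the table holds genes, and count tables were not used here. Reads of both lines were placed on the same reference, and 257 of 319 members carried a StringTie number, 29 of them joining more than 1 gene, so that neighbouring genes may share a value. Loci were called by the gene names in the table. Since FPKM carries no read totals, precision rests on the 3 libraries per group.

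From these values limma 3.58.1 (R 4.3.3, empirical Bayes with a variance trend) was run on log2(FPKM + 1), over all loci above 0 in at least 1 library of a fit, with 2-sided tests and Benjamini-Hochberg adjustment over all of them. Salt was compared with CK within each line, Roma with M-81E within each condition, and the salt responses of the lines in a fit over 12 libraries. DEGs took the study's thresholds, with the ratio of mean FPKM. Python 3.11.15 (numpy 2.4.6, pandas 2.3.3, matplotlib 3.10.9) made the summaries. The fits were tested on simulated data with 200 loci changed by 1.5 on the log2 scale. They recovered 55% (salt, Roma), 52.5% (salt, M-81E), 49% (each line comparison) and 52% (difference between the lines). Of the loci called in the salt comparisons, 9.1% (Roma) and 8.7% (M-81E) were unchanged ones. These shares were 15.5% (lines, CK), 11.7% (lines, salt) and 4.6% (difference between the lines). The changed loci were drawn only from loci well above the members' median level of 2.69 FPKM. The recovery therefore does not cover weakly or moderately expressed members.

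Members and lists were chosen with earlier results of these data known. Nearly all gene descriptions read hypothetical protein, so the planned description lists matched almost nothing; roles were taken from KEGG orthology and GO instead, after the file was seen. Named were, per salt comparison, up to 12 called members each way without overlap of the groups and, where fewer than 6, DEGs by unadjusted p; up to 10 called for the difference between the lines; the 6 most abundant; up to 4 each way per line comparison without a library at 0; all receptor, SnRK2, phosphatase and bZIP loci by count; and called pathway loci outside the members. Alternatives were a pseudocount of 0.1, a minimum mean of 1 FPKM, a common median, no variance trend, a replicate block, the loss of loci with failed estimates, Ballgown's linear model, a fit over 12 libraries, limma's fold change as DEG threshold, and leaving out each library. No sequences are shown.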

Additional observations from a re-analysis of the deposited data

Results flagged for a closer look

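A test of the difference in salt response itself, Roma minus M-81E over 12 libraries, called 3 of 319 members (0.94%). It also called 7 of 134 pathway loci outside the members. Over all loci the share called was 1.81%, so the members stood below it. SORBI_3007G181500, a transcription factor, differed by 1.75 on the log2 scale (limma, adjusted p = 0.00877), being higher in Roma-salt than Roma-CK and lower in M-81E-salt than M-81E-CK. The phosphatase SORBI_3001G424400, outside the members, showed the same order of groups and differed by 1.45 (adjusted p = 0.00446). SORBI_3007G109800, a lithium-term locus, differed by 2.18 (adjusted p = 0.0397) and SORBI_3003G110932, under 0.5 FPKM in every library, by 0.34 (adjusted p = 0.0436). Both of these calls were lost with a pseudocount of 0.1 or the replicate block, and held in 4 and 2 of 12 fits without 1 library. Outside the members, the difference was also above 0 at SORBI_3001G500200, with the entry of zeaxanthin epoxidase (1.27, adjusted p = 0.0341), and at the locus of SORBI_3001G509200 and SORBI_3001G509300, with the entry of 9-cis-epoxycarotenoid dioxygenase (1.15, adjusted p = 0.0168). It was below 0 at the SnRK2-entry kinase SORBI_3002G424500 (-0.97, adjusted p = 0.00953), at SORBI_3004G345800, annotated to positive regulation of ABA signaling (-0.78, adjusted p = 0.0404), at SORBI_3005G024200, described as a CBL-interacting protein kinase (-0.70, adjusted p = 0.0133), and at SORBI_3010G050300, with the entry of 9-cis-epoxycarotenoid dioxygenase and under 0.5 FPKM in every library (-0.27, adjusted p = 0.00477).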

How the results depend on the processing

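Loci chosen by the naming rule for a comparison kept their direction in that comparison under every alternative run. The most abundant members and other loci given with values were not checked for this. The balance of calls between the lines did turn with a common median: 20 higher and 50 lower in Roma in CK, against 61 and 24, and 35 and 49 with salt, against 71 and 17. With a minimum mean of 1 FPKM there were 26 Roma and 12 M-81E DEGs, against 43 and 26; with Ballgown's linear model 26 and 15; and with limma's own fold change as threshold 16 and 6. Leaving out 1 library gave 29 to 38 Roma DEGs and 18 to 27 M-81E DEGs. The 9 members called in Roma became 19 with the minimum of 1 FPKM, 15 without loci with failed estimates, 42 in a fit over 12 libraries, 0 with Ballgown's model and 0 to 4 without 1 library. The 1 called in M-81E became 2 with a pseudocount of 0.1, 6 with the minimum of 1 FPKM, 8 without a variance trend, 4 without failed estimates, 12 over 12 libraries, 0 with Ballgown's model and 0 to 1 without 1 library. The 3 members called for the difference between the lines became 1 with a pseudocount of 0.1, 5 with the minimum of 1 FPKM, 5 without a variance trend, 8 without failed estimates and 1 to 7 without 1 library. Calls between lines ranged from 40 to 81 in CK (85 with all libraries) and from 66 to 78 in salt (88) without 1 library. For these shifts the cause was not tested, beyond fewer samples or loci. With 3 libraries a group and no read totals, precision rests on the spread between libraries.

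Same-numbered samples showed no clear shared deviation, with correlations between -0.077 and 0.033, against -0.030 to 0.102 for other-numbered samples. Whether samples were grown or handled in pairs cannot be told from this, and the labels do not say. With the numbers as a block, the called members were 0 in Roma, 0 in M-81E, 28 between lines in CK, 51 between lines in salt and 1 for the difference between the lines, while DEGs numbered 37 in Roma and 24 in M-81E.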
